A study of Mus musculus with 9 samples.

Results

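Osteoclasts are multinucleated bone-resorbing cells that form when precursors of the monocyte and macrophage lineage fuse. The genes described here are 10 that serve this programme: Tnfsf11, Tnfrsf11a and Tnfrsf11b, which encode the RANK ligand (RANKL), its receptor RANK and the soluble decoy receptor osteoprotegerin; Nfatc1, the transcription factor that RANK signalling induces; Dcstamp and Ocstamp, membrane proteins needed for cell fusion; and Acp5, Atp6v0d2, Calcr and Gpnmb, which mark osteoclasts or are induced in them. They were chosen by name, and 7 of the 10 had a row among the 18049 genes of the deposited table. Dcstamp, Ocstamp and Calcr had no row and were not analysed here.

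In the textbook order of events, macrophage colony-stimulating factor (Csf1) acting on its receptor (Csf1r) keeps precursors alive and lets them express RANK. RANKL, made mainly by osteoblasts, osteocytes, stromal cells and T cells, then binds RANK and raises Nfatc1, while osteoprotegerin captures RANKL before it can bind. Nfatc1, working with Mitf and AP-1 factors, switches on the fusion proteins, the proton pump subunit encoded by Atp6v0d2 and the tartrate-resistant acid phosphatase encoded by Acp5. RANK and Gpnmb are also expressed by macrophages that do not become osteoclasts, and osteoprotegerin is a product of fibroblasts and other stromal cells.

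RNA-sequencing had been performed on 9 clones of primary cells grown from mouse tumors (MPC), all from WTg mice and all of a single labelled condition. WTg mice carry the EL1-Luc/EL1-Tag transgenes, which place luciferase and the SV40 large T antigen under the elastase I promoter of the exocrine pancreas, and a Mettl3 coding sequence under the ubiquitous CAG promoter. The EL1 parents were FVB/N and the Mettl3 parents BL/6. The cells were grown in DMEM with 10% FBS from minced pancreatic tumors, colonies were picked with cloning cylinders, and the labels call the cells fibroblasts. The treatment label reads none, although a protocol field of the same labels names the PLK1 inhibitor NMS-P937 at 80 nM for 24 h. Nothing in the labels states that the colonies came from different mice, so the spread between clones may include clones of a single animal. The age of the mice at tumor removal is not given in the sources used here.

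The libraries are named here by the prefix of their column in the table: library A stood alone, 4 libraries shared a prefix (B1 to B4) and 4 shared another (C1 to C4). The meaning of the prefixes is not stated. Values are normalized counts, that is, reads on a gene after the authors' scaling of each library, and they are not corrected for gene length, so levels were not compared between genes. Reads on genes numbered 12198036 in library A and up to 20453901 elsewhere, with a median of 18082583, and the level worth 3 reads, used as the floor, lay between 3.79 and 6.56 normalized counts. Mettl3 was at 2184 normalized counts in library A and at 573 ± 51.1 (SD, n = 4) in B and 485 ± 14.5 (SD, n = 4) in C. These counts do not separate the transgene from the endogenous mouse gene. Xist, which is transcribed from the inactive X chromosome, averaged 31700 normalized counts in B and 3.81 in C, so the prefix and the sex of the mouse cannot be told apart.

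Markers of both cell identities that matter for this pathway were detected in every library. All 8 macrophage markers (Csf1r, Adgre1, Cd68, Itgam, Ptprc, C1qa, Lyz2 and Tyrobp) and all 8 fibroblast markers (Col1a1, Col1a2, Col3a1, Dcn, Pdgfra, Pdgfrb, Thy1 and Fn1) exceeded 3 reads in each of the 9 libraries, so the label of fibroblasts does not cover everything that was measured. The summed macrophage markers lay between 583355 and 645941 normalized counts in B and between 446988 and 735286 in C. Lyz2 alone, at 287615 to 577311, made up most of this sum in each library. The summed fibroblast markers lay between 286479 and 471115 in B and between 347961 and 792300 in C. Fn1 alone, at 201242 to 432514, made up most of that sum. Scaling to either sum, used below, therefore follows mainly Lyz2 or Fn1. Of 5 osteoblast markers, Bglap and Ibsp had no row. Sp7 passed 3 reads in 4 libraries and Alpl in 6, with the most Alpl in C4 at 103.4 normalized counts. The summed level of 549.7 to 708.7 was carried mostly by Runx2. None of the 5 lymphocyte markers had a row. Pancreatic acinar genes summed to 2126 normalized counts in C3 and 174.8 in C2, where all 5 exceeded the floor. They summed to 20.4 in B1, in which Prss2 and Ctrb1 had 6 reads each, and to less in the other 6 libraries. In bulk RNA, fewer cells of a type and less RNA per cell cannot be told apart. Nor can a mixture of cell types be told from cells that carry both sets of markers.

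The ligand was at the limit of detection while its receptor and its decoy were expressed in every clone. Tnfsf11 (ENSMUSG00000022015, GRCm38.p6 chr14:78277446-78308043) received 2 reads among 160571721 over the whole series, 1 in B3 (1.45 normalized counts) and 1 in C1 (1.29 normalized counts). The other 7 libraries had no read, with floors of 3.79 to 6.56 normalized counts. Counting error alone allows levels above these floors, with 95% Wilson upper limits of 4.85 (B4) to 8.41 (A) normalized counts. With at most 1 read in a library, RANKL mRNA was not detected above the floor at this depth in any clone. Tnfsf11 did not enter a test.

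Tnfrsf11a, which encodes RANK (ENSMUSG00000026321, GRCm38.p6 chr1:105780673-105849444), averaged 1889 ± 636 normalized counts (SD, n = 9). Library A was lowest at 913. The B libraries held 2517, 2165, 2834 and 2308 normalized counts and the C libraries 1405, 1271, 2030 and 1557, so every B library lay above every C library, with C3 closest to B2. Each value rested on 417 to 1978 reads, and the 95% Wilson interval of the lowest B library (2058 to 2276) overlapped that of the highest C library (1928 to 2137), where counting error only is covered.

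Tnfrsf11b, which encodes osteoprotegerin (ENSMUSG00000063727, GRCm38.p6 chr15:54250619-54278484), was the most variable of the 6 measurable genes on the log2 scale. It averaged 1183 ± 752 normalized counts (SD, n = 9), and its SD of log2 values ranked at the 90.4 percentile of all genes tested. Library A held 1285 normalized counts. The B libraries split into a low pair, B2 at 345 and B3 at 441, and a higher pair, B1 at 1146 and B4 at 1638. The C libraries held 929, 1217, 2865 and 780, with C3 at 8.31 times the level of B2. B and C overlapped between 780 and 1638, with B2 and B3 below every C library and C3 above every B library. The level of the decoy did not follow that of the receptor from clone to clone, with r = -0.24 over the 9 clones as a description.

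**Figure D1:**
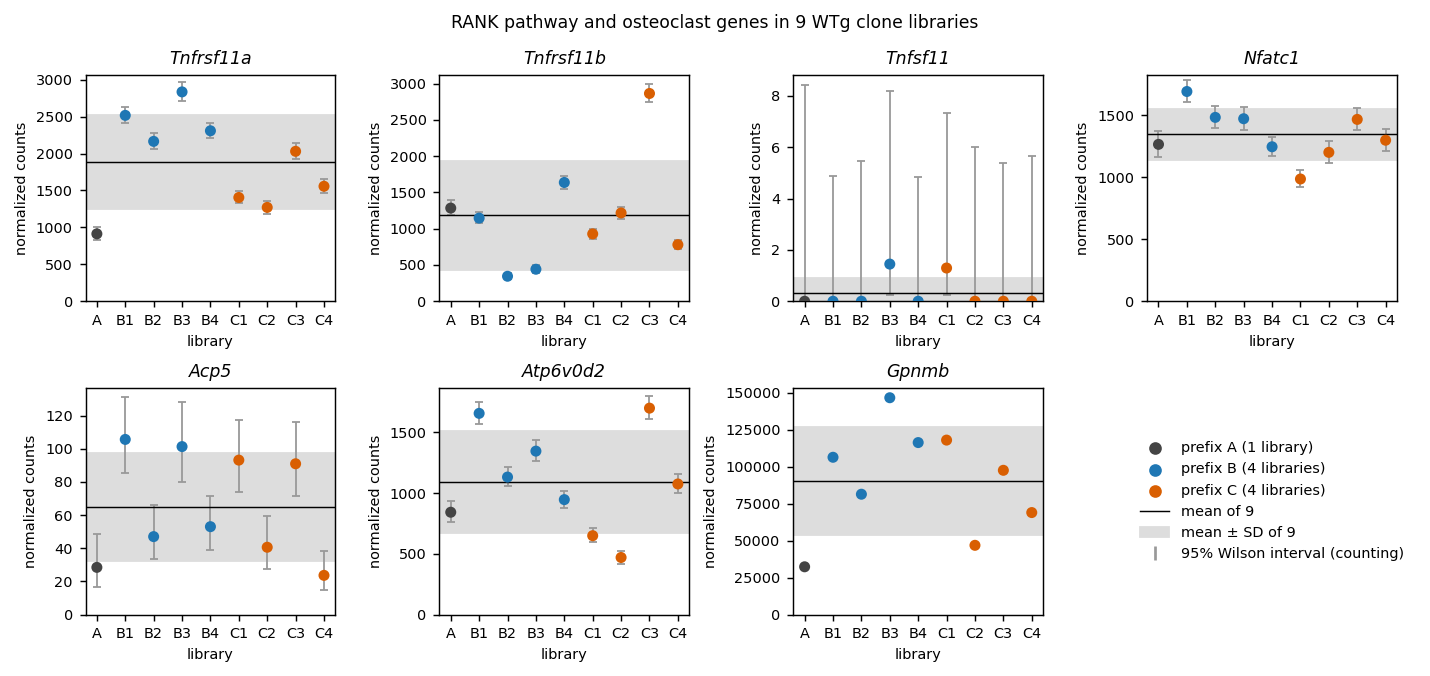
Normalized counts of the 7 genes with a row in each of the 9 libraries, 1 panel per gene, with 95% Wilson intervals for counting error, the mean of 9 as a line and the mean ± SD as a grey band. Tnfrsf11a is the gene in which all 4 B libraries lie above all 4 C libraries, Tnfrsf11b spans 345 to 2865 without order by prefix, and Tnfsf11 has 1 read in each of 2 libraries and none in 7.

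Nfatc1, the transcription factor at the centre of osteoclast differentiation (ENSMUSG00000033016), was the steadiest of the set. It averaged 1345 ± 206 normalized counts (SD, n = 9), and its SD of log2 values ranked at the 45.7 percentile of all genes tested. Library A held 1265, the B libraries 1691, 1482, 1472 and 1245, and the C libraries 986, 1200, 1466 and 1298 normalized counts. B1 was highest and C1 lowest, and the B and C values overlapped.

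Acp5, which encodes tartrate-resistant acid phosphatase (TRAP), the classical histochemical marker of osteoclasts (ENSMUSG00000001348, GRCm38.p6 chr9:22126727-22135746), was detected in every clone on few reads. It averaged 64.8 ± 32.7 normalized counts (SD, n = 9) from 420 reads in all, 13 to 83 per library. The values were 28.4 in A, then 105.6, 47.0, 101.3 and 53.0 in B, and 93.1, 40.6, 90.9 and 23.6 in C. B1, B3, C1 and C3 were the highest 4, so high and low values occurred under both prefixes. The counting intervals of the extremes did not overlap, at 14.5 to 38.4 for C4 and 85.2 to 130.9 for B1.

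Atp6v0d2, an osteoclast-enriched subunit of the vacuolar proton pump that also takes part in fusion (ENSMUSG00000028238, GRCm38.p6 chr4:19876838-19922566), averaged 1091 ± 421 normalized counts (SD, n = 9). Library A held 843, the B libraries 1657, 1132, 1346 and 946, and the C libraries 649, 470, 1700 and 1075. C3 and B1 were highest and C2 lowest, a range of 3.62 times within prefix C alone.

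Gpnmb, a transmembrane glycoprotein of lysosome-rich macrophages and osteoclasts (ENSMUSG00000029816, GRCm38.p6 chr6:49036518-49058182), averaged 90507 ± 36612 normalized counts (SD, n = 9). Library A was lowest at 32306. The B libraries held 106401, 81399, 146685 and 116345 and the C libraries 118018, 46838, 97583 and 68991 normalized counts. With at least 14763 reads in each library, counting error was negligible against the spread between clones, and the B and C values overlapped.

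RefSeq windows of 250 bases before an annotated start (GRCm38.p6) were available for 5 of the 10 genes, and those of Acp5, Gpnmb and Tnfrsf11a are shown because the first pair rose and fell together across clones, as described below, and Tnfrsf11a is the gene that separated the prefixes. Sequences run 5′ to 3′ on the gene's strand, and capitals mark matches to the motifs searched. The Acp5 window is chr9:22130599-22130848 on the minus strand, the Gpnmb window chr6:49036268-49036517 on the plus strand and the Tnfrsf11a window chr1:105780473-105780722 on the plus strand.
Acp5: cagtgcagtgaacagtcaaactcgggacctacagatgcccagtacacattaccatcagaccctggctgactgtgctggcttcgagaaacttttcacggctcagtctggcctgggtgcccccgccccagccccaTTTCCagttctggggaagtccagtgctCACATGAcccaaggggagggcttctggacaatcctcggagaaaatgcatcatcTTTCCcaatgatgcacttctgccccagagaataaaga
Gpnmb: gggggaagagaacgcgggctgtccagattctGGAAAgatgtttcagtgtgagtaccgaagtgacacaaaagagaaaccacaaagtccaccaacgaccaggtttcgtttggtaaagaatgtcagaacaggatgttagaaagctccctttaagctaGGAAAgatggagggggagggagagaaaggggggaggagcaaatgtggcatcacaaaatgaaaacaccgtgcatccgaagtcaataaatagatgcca
Tnfrsf11a: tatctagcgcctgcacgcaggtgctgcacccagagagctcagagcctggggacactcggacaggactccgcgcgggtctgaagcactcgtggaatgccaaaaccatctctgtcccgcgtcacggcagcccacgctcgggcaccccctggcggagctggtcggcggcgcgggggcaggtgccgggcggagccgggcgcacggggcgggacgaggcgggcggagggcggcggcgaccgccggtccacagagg

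The motifs were TCATGTG (the M-box read by Mitf and Tfe3), GGAAA (the core read by NFAT factors), GAGGAA (a core read by PU.1) and TGANTCA (AP-1), each on both strands, and no match of one overlapped a match of another in these windows. The Acp5 window held an M-box, written CACATGA on this strand, that begins 90 bases before the start, and the motif was present in 3.25% of all 32851 windows. It was found in 1 of the 3 windows of Acp5, the one shown, since the gene has several annotated starts. The 3.25% is a share per window and not per gene. The motif was in none of the windows of Gpnmb and Tnfrsf11a. The NFAT core occurred in 55.6% of all windows. It was matched 117 and 37 bases before the start in Acp5 and 219 and 96 bases before it in Gpnmb, and was not matched in the Tnfrsf11a window. The letters of the PU.1 core, present in 23.3% of windows, and of the AP-1 site, present in 6.75%, were not in these 3 windows.

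Libraries of prefixes B and C were then compared with limma, to ask which of these genes differ between the sets of clones by more than the spread within them. Each prefix may hold colonies of a single mouse, so p-values and intervals may not cover the spread between animals. Of the 14705 genes that averaged 10 normalized counts or more, 29 passed an adjusted p threshold of 0.05 (0.197%), 12 higher in B (0.0816%) and 17 higher in C (0.116%), and 2963 had an unadjusted p under 0.05. None of the 6 genes tested was among the 29, and 1 of the 6, Tnfrsf11a, had an unadjusted p under 0.05. The median log2 difference, B minus C, was 0.46 over the 6 genes and 0.02 over all genes tested. It was 0.31 over the 8 macrophage markers, of which 3 had an unadjusted p under 0.05, and -0.69 over the 8 fibroblast markers, of which 4 did.

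Tnfrsf11a was 1.59 times as high in the 4 B libraries (2456 ± 291 normalized counts, mean ± SD) as in the 4 C libraries (1565 ± 331). This is a log2 difference of 0.66 with a 95% interval of 0.33 to 1.003 (limma adjusted p = 0.123). Every B library exceeded every C library in 844 of all genes tested (5.74%), and the reverse order held in 669 (4.55%). Leaving out C3, the C library with the most acinar mRNA and also the most Tnfrsf11a, raised the log2 difference to 0.80 with an adjusted p of 0.0298. Removing the highest C library was bound to widen this difference. Without C3, 259 of all genes (1.76%), 160 of them higher in B (1.09%), passed. With any other single library left out, the limma adjusted p for Tnfrsf11a lay between 0.141 (without B2) and 0.325 (without B3). Without C2 and C3, in which all 5 acinar genes exceeded the floor, the difference was 0.72 with an adjusted p of 0.0997. Scaling the libraries to their macrophage markers instead gave 0.44 with an adjusted p of 0.490, and scaling them to their fibroblast markers gave 1.07 with an adjusted p of 0.205. Adgre1, the F4/80 marker, was the only 1 of the 8 macrophage markers likewise above every C library in each B library. Its log2 difference was 0.59 (limma adjusted p = 0.156). The other macrophage markers overlapped between the prefixes, with log2 differences from 0.19 (Lyz2) to 0.71 (Csf1r). The macrophage scaling followed mostly Lyz2, and the part of macrophage content in the RANK difference was not tested.

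The other 5 genes had intervals that included 0. The log2 difference was 0.52 (95% interval -0.34 to 1.38, adjusted p = 0.439) for Atp6v0d2, 0.50 (-0.21 to 1.21, adjusted p = 0.384) for Gpnmb, 0.42 (-0.70 to 1.54, adjusted p = 0.637) for Acp5 and 0.26 (-0.05 to 0.56, adjusted p = 0.312) for Nfatc1, all by limma. Tnfrsf11b was the only one of the 6 with a lower mean in B, at -0.79 (-2.10 to 0.53, adjusted p = 0.448). The signs of all 6 held under each alternative run. Acp5 came down to 0.036 without C4, and Nfatc1 to 0.037 under scaling to macrophage markers. The intervals of Atp6v0d2, Gpnmb, Acp5 and Tnfrsf11b each include differences of more than 2-fold.

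**Figure D2:**
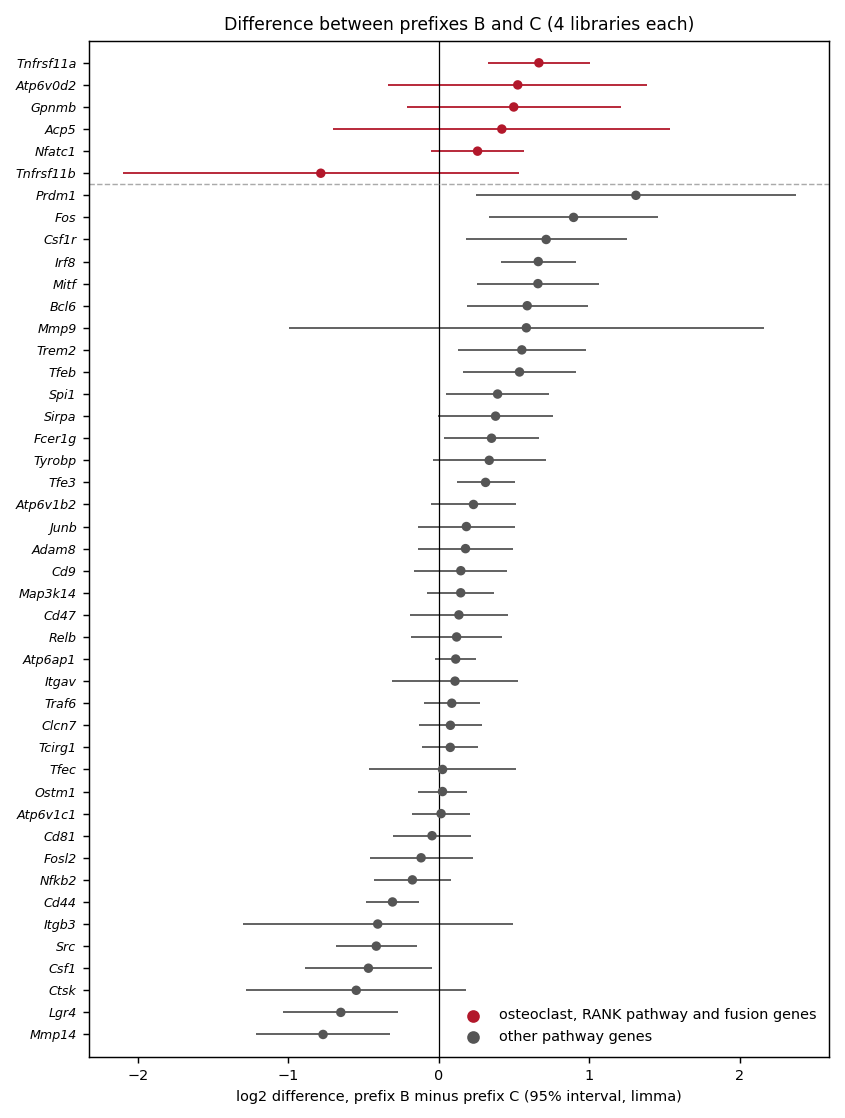
Log2 difference between prefix B and prefix C (4 libraries each) with 95% intervals from limma, for the 6 tested osteoclast, RANK pathway and fusion genes (red, top) and 39 other osteoclast pathway genes (grey). The interval of Tnfrsf11a (0.33 to 1.003) lies right of 0, that of Tnfrsf11b (-2.10 to 0.53) is the widest of the red ones, and no gene plotted passed the adjusted threshold.

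A list of 42 further genes of osteoclast formation and function placed these values in their pathway. Of the 42, 40 had a row (Oscar and Siglec15 had none) and 39 were tested, since Car2, the carbonic anhydrase of resorbing osteoclasts, stayed at or under 3 reads in all 9 libraries. None of the 39 passed the adjusted threshold in either direction, and 16 (41.0%) had an unadjusted p under 0.05, beside 20.1% of all genes tested. The median log2 difference over the 39 was 0.13. In 6 genes every B library lay above every C library (Mitf, Tfe3, Tfeb, Irf8, Bcl6 and Trem2) and in 3 the order was reversed (Lgr4, Cd44 and Mmp14), out of 39, beside 5.74% and 4.55% of all genes.

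The survival signal upstream of RANK was expressed in all clones. Csf1 averaged 22899 normalized counts in B and 31910 in C, a log2 difference of -0.47 (limma adjusted p = 0.216). Its receptor Csf1r averaged 46031 in B and 28402 in C, a log2 difference of 0.71 (adjusted p = 0.178). Neither passed the threshold. The ligand had its higher mean in C and the receptor in B, with unadjusted 95% intervals of -0.89 to -0.05 and 0.18 to 1.25.

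Among the transcription factors, Mitf, a partner of Nfatc1 and a regulator of lysosomal and melanosomal genes, averaged 1660 normalized counts in B and 1066 in C (log2 difference 0.66, limma adjusted p = 0.151). Irf8, which restrains osteoclast formation by opposing Nfatc1, averaged 3148 in B and 2003 in C (0.66, adjusted p = 0.0728). The following genes were named after their values were seen. Bcl6, known as a further repressor of osteoclast genes, had a log2 difference of 0.59 (adjusted p = 0.164). The Mitf relatives Tfe3 and Tfeb were at 0.31 and 0.54 (adjusted p = 0.151 and 0.167), and the ITAM-linked receptor Trem2 at 0.55 (adjusted p = 0.184). With C3 left out, Irf8 (0.74, adjusted p = 0.0282), Tfeb (0.68, adjusted p = 0.0452) and Prdm1, a repressor of Irf8 (1.77, adjusted p = 0.0387), were the 3 genes of the list that passed the threshold in B, beside 1.09% of all genes. Among the C libraries, C3 held the most of each of the 3, so leaving it out was bound to raise these differences. No gene of the list passed with any other single library left out. None of the 3 passed when both C2 and C3 were left out (adjusted p = 0.0726, 0.113 and 0.127) or when all libraries were scaled to macrophage markers (adjusted p = 0.451, 0.620 and 0.399). Both an activator of osteoclast genes (Mitf) and their repressors (Irf8 and Bcl6) had higher means in B.

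Genes of matrix and bone digestion had other orders. Ctsk, the collagen-degrading cathepsin of osteoclasts that fibroblasts also make, averaged 1310 normalized counts in B and 2052 in C (log2 difference -0.55, limma adjusted p = 0.355), and its highest level, 3202, was in C4, the library with the least Acp5. Mmp9, a gelatinase of osteoclasts, was near the floor, with 2 to 26 reads per library and means of 19.9 in B and 16.2 in C (0.58, adjusted p = 0.643). Its sign turned when C3 was left out, at -0.0061. Itgb3, the integrin chain of the osteoclast sealing zone, averaged 635 in B and 804 in C (-0.41, adjusted p = 0.565). Lgr4, a second receptor for RANKL, Cd44, a hyaluronan receptor implicated in fusion, and Mmp14, a membrane-bound collagenase, were named after their values were seen and lay at -0.65, -0.31 and -0.77 (adjusted p = 0.149, 0.145 and 0.145). The sign of Cd44 turned under scaling to fibroblast markers, at 0.10.

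The list also held 6 genes of acid secretion that cells with lysosomes share. Tcirg1, which encodes the a3 subunit of the proton pump, lay between 5701 and 7229 normalized counts over the 9 clones. Clcn7, the lysosomal chloride antiporter, lay between 3022 and 4069, and Ostm1, its partner subunit, between 2362 and 2849. Their coefficients of variation were 7.51%, 8.41% and 6.61%, and those of the pump genes Atp6v1c1, Atp6ap1 and Atp6v1b2 were 7.30%, 8.48% and 14.7%, with Atp6v1b2 the most variable of the 6 at 4745 to 7971 normalized counts. Atp6v0d2, the osteoclast-enriched pump subunit, ranged over 3.62 times among clones in which these 6 ranged over 1.21 (Ostm1) to 1.68 times (Atp6v1b2). This difference in range was not tested.

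**Figure D3:**
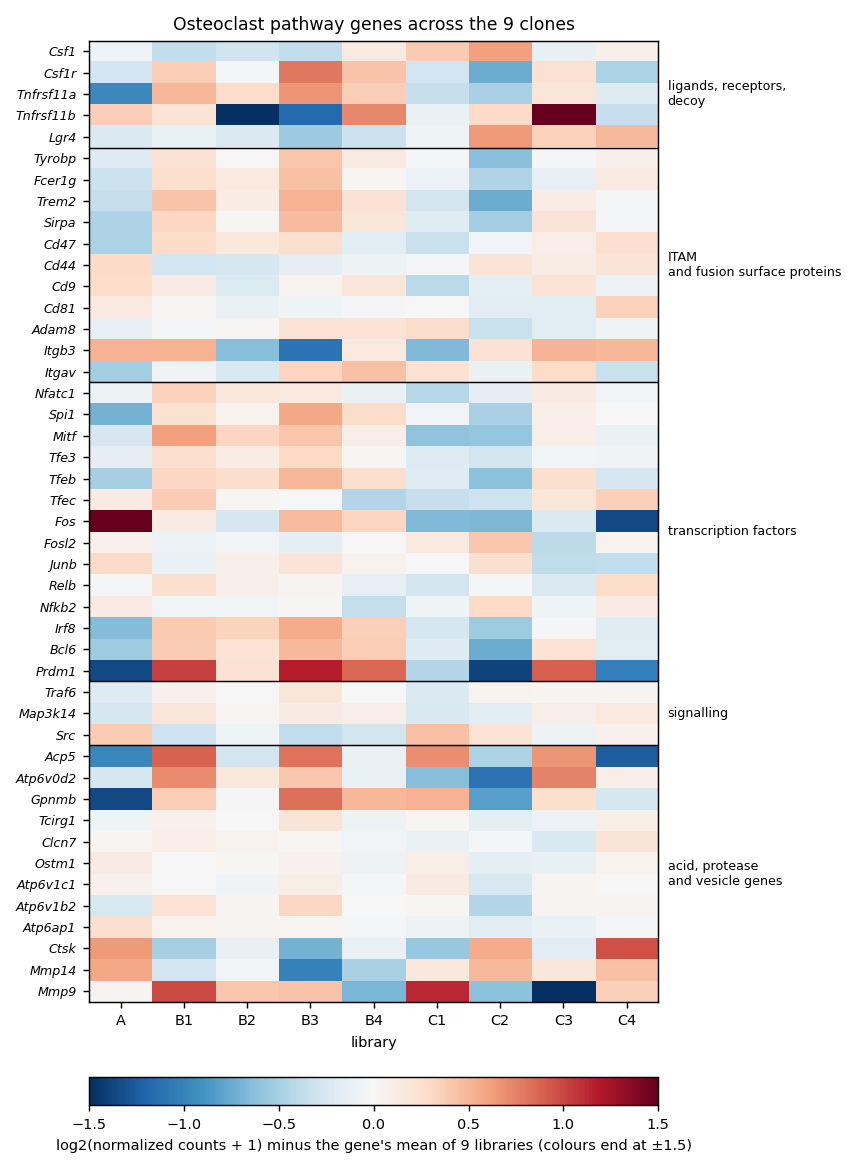
Log2(normalized counts + 1) minus each gene's mean over the 9 libraries for the tested genes of the pathway, grouped by role, with libraries in columns and colours ending at ±1.5. Tnfrsf11a and Irf8 are above their mean in all 4 B libraries, Tnfrsf11b and Acp5 alternate within both prefixes, and Tcirg1, Clcn7 and Ostm1 stay near white throughout.

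Across the 9 clones, 7 relations between these genes could be tested of the 12 laid out, because 5 involved a gene without a row or with too few reads. Exact two-sided permutation tests over the 362880 possible pairings were applied to Pearson's r and to Spearman's rho of log2(normalized counts + 1), with adjustment over the 7 relations. On both measures, 3 relations passed.

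The RANK gene moved with the receptor for its survival factor. For Tnfrsf11a and Csf1r, r was 0.83 (exact permutation p = 0.00600, adjusted p = 0.0257) and rho 0.88 (p = 0.00308, adjusted p = 0.0213). B3 was highest in both genes, and A was lowest in Tnfrsf11a with C2 lowest in Csf1r. Within prefixes r was 0.92 in B and 0.92 in C (n = 4 each), and without the 2 clones farthest from the median it was 0.92. After scaling to the other macrophage markers, r was 0.84. This scaling multiplies both genes by the same factor in each library, which can itself raise r. The value therefore cannot separate the relation from macrophage content. With values centred within prefixes and exchanged only there, r was 0.91 and the exact adjusted p 0.0729, so the relation had the same direction within prefixes but did not pass there with 8 libraries.

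Atp6v0d2 moved with Nfatc1. For this pair r was 0.82 (exact permutation p = 0.00735, adjusted p = 0.0257) and rho 0.85 (p = 0.00607, adjusted p = 0.0213). Within prefixes r was 0.94 in B and 0.74 in C, and without the 2 farthest clones it was 0.83 (exact adjusted p = 0.0102). By rho the relation did not pass without those clones (0.82, exact adjusted p = 0.0796) or without library A (0.81, exact adjusted p = 0.0652). Centred within prefixes, r was 0.76 with an exact adjusted p of 0.231. Scaling to macrophage markers lowered r to 0.68 (exact adjusted p = 0.0922), which no longer passed.

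Acp5 moved with Gpnmb. For Acp5 and Gpnmb, r was 0.78 (exact permutation p = 0.0116, adjusted p = 0.0270) and rho 0.82 (p = 0.0108, adjusted p = 0.0251). A, C2 and C4 held the least of both genes, B1, B3, C1 and C3 were high in both, and B4 was high in Gpnmb but not in Acp5. Within prefixes r was 0.64 in B and 0.73 in C, without the 2 farthest clones it was 0.88, and centred within prefixes it was 0.70 with an exact adjusted p of 0.267. Without library A, r was 0.73 and the exact adjusted p 0.0628 with 8 libraries, which did not pass. No other single library was left out for this relation, so a particular weight of A is not shown. Acp5 and Nfatc1 had r = 0.25 (exact permutation p = 0.521, adjusted p = 0.521), with within-prefix values of 0.64 in B and -0.20 in C. Their r was 0.64 without the 2 farthest clones (exact adjusted p = 0.169) and 0.66 under scaling to macrophage markers (exact adjusted p = 0.0922), neither of which passed. The difference between these correlations was not tested.

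The other 3 relations did not pass. For Tnfrsf11a and Nfatc1, receptor and transcription factor, r was 0.62 (exact permutation adjusted p = 0.126) and rho 0.67 (adjusted p = 0.103), with r = 0.29 within B and 0.74 within C. Acp5 and Atp6v0d2 had r = 0.42 (exact adjusted p = 0.300), with 0.86 within B and 0.17 within C. Atp6v0d2 and Gpnmb had r = 0.48 (exact adjusted p = 0.269), with 0.15 within B and 0.46 within C.

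**Figure D4:**
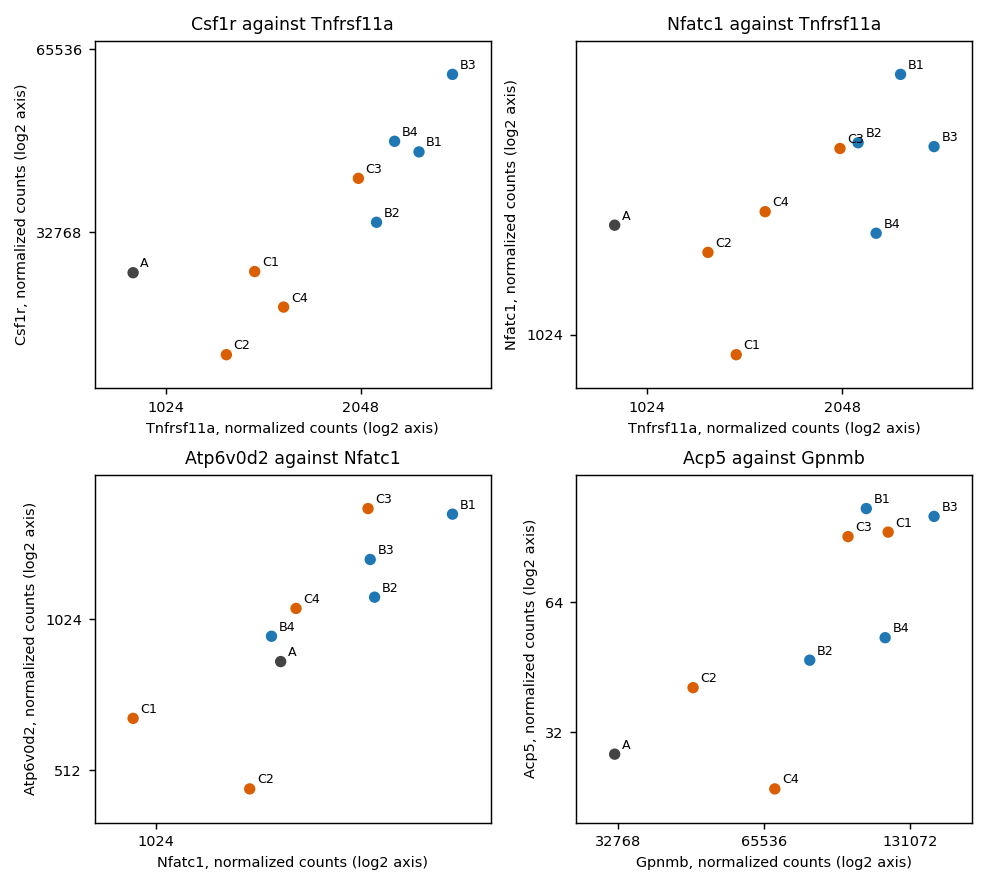
Normalized counts of 4 pairs of genes in the 9 libraries on log2 axes, with A in dark grey, B in blue and C in orange. Csf1r rises with Tnfrsf11a (r = 0.83), Atp6v0d2 with Nfatc1 (r = 0.82) and Acp5 with Gpnmb (r = 0.78), while Nfatc1 and Tnfrsf11a (r = 0.62) scatter more widely.

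Fibroblast markers were set beside these genes in the same way. As a description over the 9 clones, Col1a1 had r = -0.79 with Tnfrsf11a, -0.80 with Gpnmb, -0.64 with Atp6v0d2, -0.61 with Acp5 and -0.44 with Nfatc1, beside -0.84 with Csf1r. Tnfrsf11b was the exception among them, at 0.37 with Col1a1 and -0.08 with Csf1r. Of the 8 fibroblast markers, r was negative for 7 with each of Tnfrsf11a, Gpnmb, Atp6v0d2 and Acp5, for 6 with Nfatc1 and for 1 with Tnfrsf11b. Dcn, which encodes decorin, had the opposite sign to Col1a1 in each case, at 0.52 with Tnfrsf11a, 0.55 with Gpnmb and 0.63 with Acp5. All of these values come from libraries of mixed marker content scaled to a shared total. The part of that mixture in the relations above was not tested. The macrophage scaling cannot show it, since it followed mostly Lyz2 and gave both genes the same factor.

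The genes whose pattern over the 9 clones was most like each member were found among the 12301 genes averaging 50 normalized counts or more, by Pearson's r of log2 values. With so many genes and 9 clones such maxima are high for any gene, and they are given as a description. They were Ctdsp1 (0.99), Rreb1 (0.99) and Ncoa1 (0.99) for Tnfrsf11a, and Endod1 (0.96), Neb (0.96) and Gpc2 (0.95) for Tnfrsf11b. For Nfatc1 they were Fam193b (0.97), Setdb1 (0.96) and Ddx17 (0.96), and for Atp6v0d2 Ubr1 (0.98), Lst1 (0.98) and Rassf2 (0.98). For Acp5 they were Cggbp1 (0.94), Them6 (0.94) and Ermp1 (0.92), and for Gpnmb Apbb1ip (0.98), Pitpna (0.97) and Ppt2 (0.97). No gene appeared under more than 1 member.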

How the data were processed

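Bulk RNA-sequencing of 9 MPC clones of WTg mice was used, from stranded mRNA libraries. The authors deposited log2 values for 18049 genes, with 1 factor per library and an offset of 4 added before the log2. The submitters' processing notes name FastQC 0.11.9, STAR 2.7.10, RSEM 1.3.3 and GRCm38 without saying which step each served. The same table holds 6 further columns of libraries from other studies, which were not used in any step.

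Normalized counts are 2 raised to the deposited value, less 4. Whole reads were recovered from the spacing of low values (100% of nonzero values under 1000 reads were whole within 0.1 of a read). Wilson intervals and floors cover counting error only. Of the planned tests, that for log2 values was used. Libraries of prefixes B and C were compared on log2(normalized counts + 1) by limma, using lmFit and trended eBayes, two-sided, with Benjamini-Hochberg adjustment over all genes tested. P-values and intervals measure the spread between these libraries, which may be partly technical. Separate animals are not stated, so each prefix may hold colonies of a single mouse. The spread between animals may then not be covered. All tests were tested on simulated data. Levels over the 9 clones were given without a test.

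The genes and lists were chosen with earlier results of these data known. Named were all 10 genes, Csf1, Csf1r, Ctsk, Mmp9, Oscar, Itgb3, Mitf and Irf8, up to 3 genes of the pathway list called in each direction (none was called), Mettl3, and the 3 genes most like each member. An item of the planned pathway list is not reported here and was left out of its counts. Genes named after their values were seen are marked in the text. Marker lists had 8 macrophage, 8 fibroblast, 5 osteoblast, 5 lymphocyte and 5 acinar genes. Alternatives set in advance were the deposited log2 values, a pseudocount of 0.1, no filter, a filter at a mean of 50, upper quartile scaling, limma without a trend, voom on recovered reads, leaving out single libraries, leaving out the 2 farthest clones, and centring within prefixes. Scaling to macrophage or fibroblast markers and leaving out both libraries with all 5 acinar genes above the floor were added after seeing the data. Promoter windows and gene coordinates are from RefSeq (GRCm38.p6). Versions were limma 3.58.1 under R 4.3.3, and scipy 1.17.1, pandas 2.3.3, numpy 2.4.6 and matplotlib 3.10.9 under Python 3.11.15.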

Additional observations from a re-analysis of the deposited data

Results flagged for a closer look

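Of 45 genes of these lists looked at for a library far from the others, 2 had a gap of the highest library over its range above Dixon's 95% critical value for 9 values, and both were highest in library A. Fos, a component of AP-1, stood at 4692 normalized counts in A against a median of 859, a gap of 0.768 of its range. Atp6ap1, an accessory subunit of the proton pump, stood at 13321 in A against a median of 11082, a gap of 0.518 of its range. Chance alone passes this value in about 1 of 20 genes, and none of the 6 measurable osteoclast and RANK pathway genes passed it. Library A also had the highest Mettl3, at 2184 normalized counts, and the lowest depth.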

How the results depend on the processing

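The mean level of each gene moved by less than 1 SD under upper quartile scaling, scaling to each total and leaving out library A. A larger shift could hardly have occurred, since the scaling factors were near 1 and only a single library was left out. The count of all genes called between prefixes (29, 12 higher in B and 17 in C) was 19 with no filter (10 higher in C), 57 under scaling to macrophage markers (4 and 53, with the median of all genes shifted to -0.20), 99 under scaling to fibroblast markers (68 and 31, median 0.42) and 14 without C2 and C3, the libraries with all 5 acinar genes above the floor (5 and 9). Leaving out single libraries gave 9 to 259 calls, 3 to 160 higher in B and 6 to 99 higher in C. The upper ends came without C3. The sign of Mmp9 turned without C3 (-0.0061; 1.06 at most with another library left out) and without C2 and C3 (-0.46), and that of Cd44 under fibroblast scaling (0.10). Nfatc1 with Atp6v0d2 fell short by r when centred within prefixes (0.76) and under macrophage scaling (0.68), and by rho without A (0.81), without the 2 farthest clones (0.82), centred (0.90) and under macrophage scaling (0.60). Tnfrsf11a with Csf1r fell short centred (r 0.91, rho 0.79) and, by rho, without C2 and C3 (0.86). Acp5 with Gpnmb fell short without A (r 0.73, rho 0.79), centred (r 0.70, rho 0.69) and, by rho, without C2 and C3 (0.75). Tnfrsf11a with Nfatc1 passed by rho under upper quartile scaling (0.78), and rho of Nfatc1 with Acp5 turned to -0.048 when centred. Fewer libraries or exchanges were available in the centred and left-out fits, and for the scalings the cause was not tested. Of the values recomputed, 509 stayed: mean levels within 1 SD, counts of genes within 1.5 times, and the rest on their side of the threshold. A further 32 counts of genes moved beyond 1.5 times. No paired analysis was possible because the labels define 1 group and no second group to pair it with. Depth limits Tnfsf11, Car2, Mmp9 and, in part, Acp5.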

Other observations

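After the values had been seen, Mitf was set against the 6 measurable genes, as an addition to the relations above. It moved with Nfatc1 (r = 0.91, exact permutation p = 0.000474, adjusted over the 6 p = 0.00284, rho = 0.88), with Atp6v0d2 (r = 0.87, exact adjusted p = 0.00806, rho = 0.78) and with Tnfrsf11a (r = 0.81, exact adjusted p = 0.0160, rho = 0.90). Centred within prefixes, r was 0.91, 0.95 and 0.80 for the 3 genes (exact adjusted p = 0.0313, 0.0208 and 0.0799). With the 2 clones of most extreme Mitf left out, r was 0.87, 0.68 and 0.85 (exact adjusted p = 0.0470, 0.111 and 0.0470). The relation with Atp6v0d2 thus did not pass with the remaining 7 clones. With all clones, the relation of Mitf did not pass with Gpnmb (r = 0.48, exact adjusted p = 0.282) or Tnfrsf11b (r = -0.25, exact adjusted p = 0.517). Nor did it pass with Acp5 (r = 0.39, exact adjusted p = 0.352), whose window holds the M-box. Without the 2 clones of most extreme Mitf, r was 0.74 with Gpnmb and 0.81 with Acp5 (exact adjusted p = 0.0732 and 0.0635). Neither passed with the remaining 7 clones, but both values were above the 0.68 of Atp6v0d2. Centred within prefixes, r was 0.14 with Gpnmb and 0.17 with Acp5 (exact adjusted p = 0.767 for each).

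The ratio of Tnfrsf11b to Tnfrsf11a, which is not corrected for gene length and can be read only between clones, was 1.41 in A. In B it was 0.456, 0.159, 0.156 and 0.710, and in C it was 0.661, 0.958, 1.41 and 0.501. The B and C values overlapped, and B2 and B3 were lowest.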
